A study of Mus musculus with 9 samples.

Results

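The enzymes that make and clear glyoxylate in the liver were examined in male mice that overexpressed GP73 or were fed a high fat diet. The set holds 6 genes, Grhpr, Agxt, Agxt2, Hao1, Hoga1 and Prodh2, of the 37074 gene names on the array. Members were found by gene name, with every one of their probes kept whatever its signal, and the set was chosen with earlier results of these same arrays known. The values of the members are therefore a description, given without p-values. All 6 were among the 5761 genes that could be tested.

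Liver RNA was hybridized to 9 one-colour Agilent arrays, 3 for each of 3 groups. All mice had been injected with a hepatocyte-specific adeno-associated virus (AAV), so that the controls carried the virus too. AAV-V mice received the empty vector and AAV-GP73 mice the vector that expresses GP73, a Golgi membrane protein encoded by Golm1, both on a normal diet. AAV-V HFD mice received the empty vector and a high fat diet. The labels give an age of 12 months in every group, whereas the study counts those months from the injection, and the sources used here do not say whether mice were pooled for a sample. No array held AAV-GP73 mice on the high fat diet, so AAV-GP73 and AAV-V HFD differ in both vector and diet.

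Glyoxylate is a small reactive acid formed in hepatocytes from glycolate and from the hydroxyproline of collagen. Healthy liver turns it into glycine or glycolate, and what escapes is oxidized to oxalate, which the kidney must excrete. In people, inherited loss of AGXT, GRHPR or HOGA1 causes primary hyperoxaluria, a disease of oxalate kidney stones. Prodh2, hydroxyproline dehydrogenase, and Hoga1, which cleaves 4-hydroxy-2-oxoglutarate, are the first and last mitochondrial steps that release glyoxylate from hydroxyproline. Hao1, the peroxisomal glycolate oxidase, makes glyoxylate from glycolate. Agxt, alanine-glyoxylate aminotransferase of the peroxisome and, in rodents, also of mitochondria, converts glyoxylate to glycine. Grhpr reduces glyoxylate to glycolate and hydroxypyruvate to glycerate. Agxt2 is a mitochondrial aminotransferase that also uses glyoxylate and acts on β-aminoisobutyrate and methylated arginines.

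The 6 genes had 10 probes of 60 bases. Agxt (chr1:95041901-95041959), Hao1 (chr2:134323170-134323229), Hoga1 (chr19:42144788-42144847) and Prodh2 (chr7:31296177-31296236) had 1 probe each, in mm9 coordinates of the scanner output. An exon annotation of that build was not used here. Grhpr and Agxt2 had 3 probes each, which did not behave alike, and their sequences are shown because the values of these genes depend on which probe is read. For Grhpr the scanner output places the probes on chromosome 4 at chr4:44995759-44995818, chr4:45003362-45003421 and chr4:45003514-45003573, with starts at bases 132, 1019 and 1187 of the transcript. For Agxt2 they lie at chr15:10323555-10328821, which spans more bases than the probe holds, chr15:10339423-10339482 and chr15:10339849-10339908, with transcript starts at 1280, 1754 and 2158. The last of these is assigned to predicted transcript variants alone. The probe nearest the start of each transcript is printed whole and the others by their first 30 bases, all in lower case on the sense strand:
Grhpr A_55_P2087647: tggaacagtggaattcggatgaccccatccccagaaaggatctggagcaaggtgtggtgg
Grhpr A_51_P427432: aagctgtaaccagatgggctttcatgggct
Grhpr A_55_P2043622: gcttgccacatacttgccaaaagcctgtaa
Agxt2 A_52_P113817: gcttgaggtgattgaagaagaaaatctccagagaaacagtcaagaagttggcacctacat
Agxt2 A_55_P2186282: taaaagacatgaccgactatctatctactg
Agxt2 A_55_P2067031: ctggagccaccctacctcagggtttcttga

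For every probe the signal of Feature Extraction, the scanner's own software, was put on the log2 scale and scaled so that probes detected on all 9 arrays had the same 75th percentile. These are the scaled log2 signals given below. A probe counted as detected where the software marked it well above background, and each gene is represented by its brightest probe. On the AAV-V arrays between 10.2% and 10.8% of spots were detected, against 16.0% to 18.4% on AAV-GP73 and 13.8% to 16.7% on AAV-V HFD arrays. Scaling raised the AAV-V arrays by 0.87 to 1.10 and lowered the others by up to 0.77 on the log2 scale, so the scaled signal of an undetected probe sits higher on AAV-V arrays, and no level is read from it. Where all arrays of a group lacked detection, a fold is given only as a lower bound against the lowest detected signal of those arrays. The fit across all genes still gives such genes a difference, by which they are called or not, but it rests on undetected signals and is given only in the plots, in medians over lists and where scalings are compared. A gene was called at a 2-fold difference with an adjusted p under 0.05 in limma's test over all genes. For genes undetected in a whole group, that p belongs to the fitted difference and does not test the bound. Golm1 had 1 probe, detected on none of the 9 arrays, so the labels could not be checked by the overexpressed gene, and whether the vector carries that probe's sequence is not known here.

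Detection differed between the groups for most of the set. On the AAV-V arrays 2 of the 6 genes, Grhpr and Agxt, were detected on all 3 arrays and the other 4 on none. All 6 were detected on all 3 AAV-GP73 arrays. On the AAV-V HFD arrays 4 genes were detected on all 3, and Hoga1 and Prodh2 on 1 array each.

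**Figure D1:**
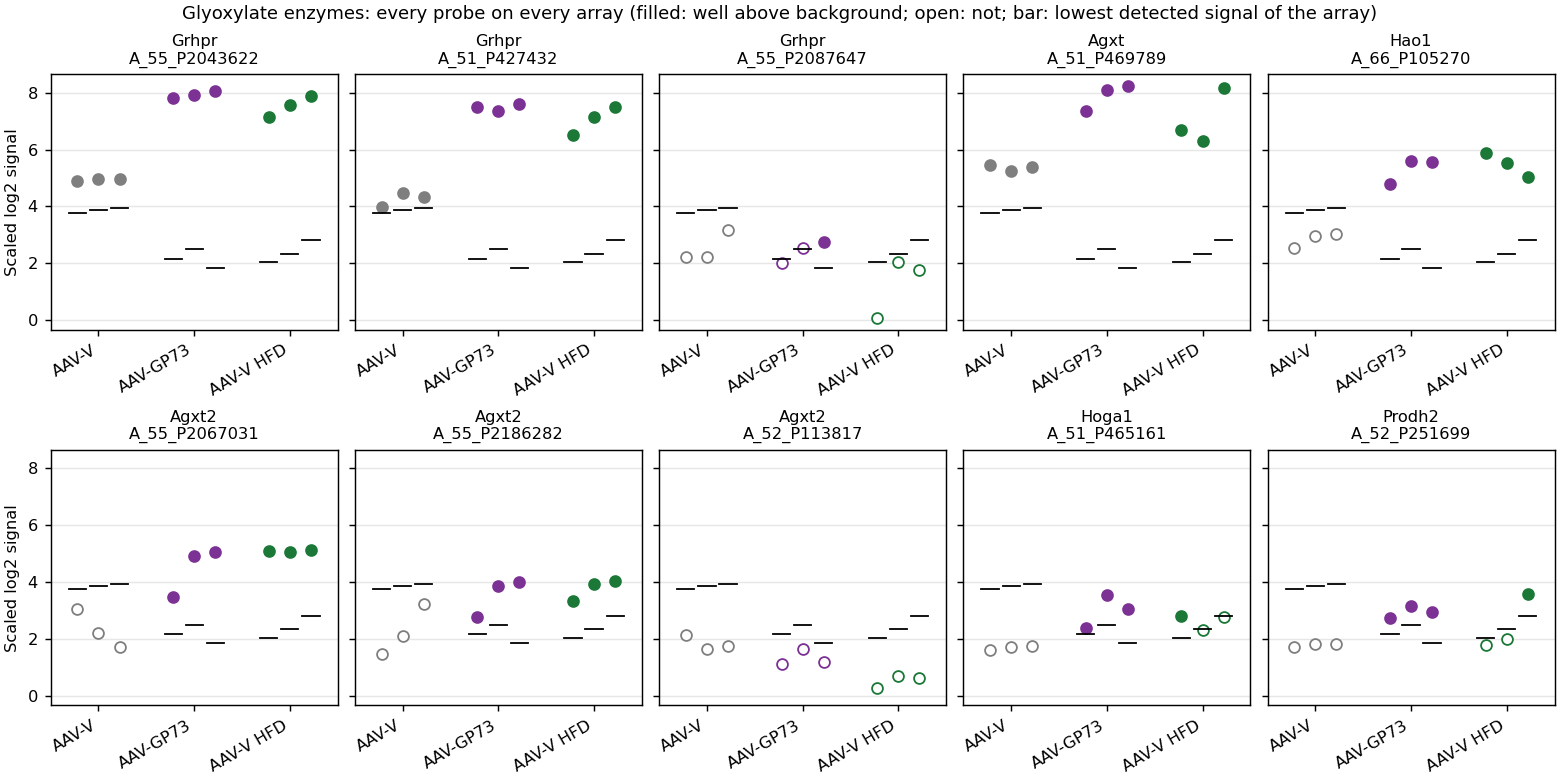
Scaled log2 signal (vertical axis) of each of the 10 probes on each array, by group. Points are single arrays in replicate order, filled where detected, and the short bar beside each is the lowest detected signal of that array; on AAV-V arrays 7 of the 10 probes stay below it.

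Grhpr, the glyoxylate and hydroxypyruvate reductase, had scaled log2 signals of 4.89, 4.95 and 4.95 on the AAV-V arrays, 7.81, 7.94 and 8.05 on the AAV-GP73 arrays, and 7.16, 7.57 and 7.87 on the AAV-V HFD arrays. Every array of both other groups lay above every AAV-V array, and the AAV-GP73 and AAV-V HFD arrays overlapped. Grhpr was 8.01-fold higher in AAV-GP73 than in AAV-V (log2 3.00, SE 0.26, n = 3 and 3) and 6.07-fold higher in AAV-V HFD (log2 2.60, SE 0.26). The difference of 0.40 (SE 0.26) between AAV-GP73 and AAV-V HFD was not called.

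The other probe near the end of the Grhpr transcript, A_51_P427432, gave log2 differences from AAV-V of 3.24 (SE 0.30) in AAV-GP73 and 2.79 (SE 0.30) in AAV-V HFD, within 1 SE of the brightest probe. It was detected on all 9 arrays. The probe near the transcript start, A_55_P2087647, was detected on AAV-GP73 replicate 3 alone, with a processed signal of 11.3, and gives no fold against AAV-V. Why these probes differed was not tested.

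Agxt, which turns glyoxylate into glycine, had scaled log2 signals of 5.45, 5.24 and 5.39 on the AAV-V arrays and of 7.37, 8.09 and 8.23 on the AAV-GP73 arrays. On the AAV-V HFD arrays they were 6.70, 6.30 and 8.18, so that replicate 3 stood with the AAV-GP73 arrays and the other two below them. Agxt was 5.81-fold higher in AAV-GP73 (log2 2.54, SE 0.44) and 3.25-fold higher in AAV-V HFD (log2 1.70, SE 0.44), with no overlap of either group with AAV-V. Without AAV-V HFD replicate 3 the second difference was 1.14 on the log2 scale and was still called. That difference was not called with the methods' t-test after Benjamini-Hochberg adjustment. AAV-GP73 exceeded AAV-V HFD by 0.84 (SE 0.44), not called, and by 1.40, also not called, without that array.

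Hao1, the source of glyoxylate from glycolate, was undetected on AAV-V arrays, where its processed signals were 2.90, 3.62 and 4.46. Its processed signals were 37.0, 66.4 and 79.7 on the AAV-GP73 arrays and 99.2, 69.6 and 33.5 on the AAV-V HFD arrays, all detected. On the scaled log2 scale the AAV-GP73 arrays read 4.80, 5.61 and 5.55, and the arrays of the high fat diet 5.87, 5.54 and 5.04. Hao1 was at least 2.76-fold higher in AAV-GP73 and at least 3.09-fold higher in AAV-V HFD than in AAV-V. The groups with GP73 and with the high fat diet overlapped, with a difference of -0.16 (SE 0.32).

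Agxt2, the mitochondrial aminotransferase, was also undetected on the AAV-V arrays by any of its 3 probes. Its brightest probe had scaled log2 signals of 3.47, 4.92 and 5.06 on the AAV-GP73 arrays and of 5.08, 5.04 and 5.11 on the AAV-V HFD arrays. AAV-GP73 replicate 1 was the lowest of these 6 arrays, and within its group it was the lowest for the brightest probe of all 6 genes. Agxt2 was at least 1.54-fold higher in AAV-GP73 and at least 2.33-fold higher in AAV-V HFD. Both were called, the first no longer with the methods' t-test after Benjamini-Hochberg adjustment. AAV-GP73 differed from AAV-V HFD by -0.59 (SE 0.44), which was not called and shrank to -0.09 without AAV-GP73 replicate 1.

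The remaining Agxt2 probes did not add up to one picture. A_55_P2186282 was detected on all 6 AAV-GP73 and AAV-V HFD arrays, with processed signals of 9.13, 19.6 and 27.3 and of 17.1, 23.1 and 16.6. No bound above 1 could be set for it because the lowest detected signals of the AAV-V arrays were higher after scaling. The probe A_52_P113817 was detected on none of the 9 arrays.

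The hydroxyproline steps were the dimmest of the set. Hoga1 had processed signals of 1.51, 1.52 and 1.82 on the AAV-V arrays, all undetected, and of 6.87, 15.9 and 13.9 on the AAV-GP73 arrays, all detected. On AAV-V HFD arrays they were 11.8, 7.47 and 6.89, of which the first was detected. Prodh2 had 1.64, 1.63 and 1.92 on AAV-V arrays, 8.81, 12.1 and 13.0 on AAV-GP73 arrays, and 5.88, 5.98 and 12.2 on AAV-V HFD arrays, of which the last was detected. For both genes a bound on the fold against AAV-V would fall under 1, so no fold is given for either. The fit called both in AAV-GP73 and neither in AAV-V HFD, calls that depend on the scaled background of the AAV-V arrays. Prodh2 arrays of AAV-V HFD and AAV-V overlapped after scaling. The AAV-GP73 call of Prodh2 was lost when any 1 AAV-V array, or AAV-GP73 replicate 2 or 3, was left out. Hoga1 was called in AAV-V HFD without AAV-V HFD replicate 2.

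**Figure D2:**
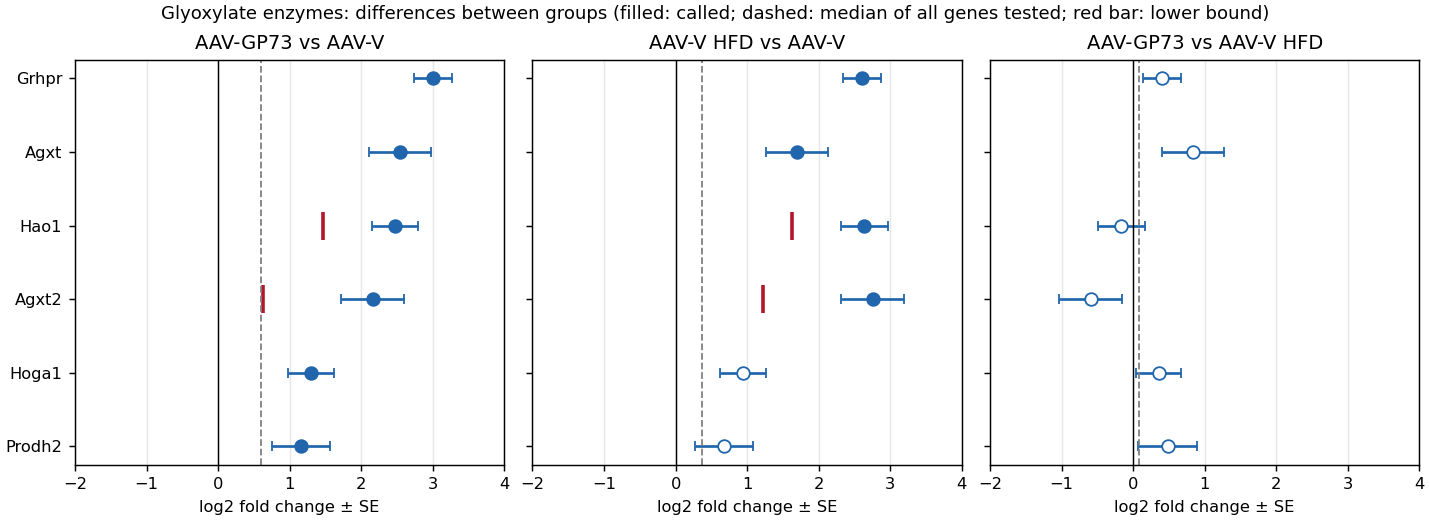
Fitted log2 fold change ± SE (horizontal axis) of the 6 genes in the 3 comparisons, filled where called. Red bars are lower bounds where AAV-V arrays lacked detection, and dashed lines are the medians of all genes tested (0.60, 0.37 and 0.09); Hoga1 and Prodh2 have no bound above 0. Points of Hao1, Agxt2, Hoga1 and Prodh2 against AAV-V rest on undetected AAV-V signals.

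Counted over the set, 6 of the 6 genes were called higher in AAV-GP73 than in AAV-V and 0 lower, beside 33.2% of all genes tested called higher and 19.4% called lower. In AAV-V HFD against AAV-V 4 of 6 were called higher and 0 lower, beside 24.8% and 18.2% of all genes. Between AAV-GP73 and AAV-V HFD 0 of 6 were called, beside 1.96% of genes higher and 0.555% lower in AAV-GP73. In that last comparison 915 of the 5761 genes had an unadjusted p under 0.05 in limma's test and 145 were called. The members passed the filter on dim probes through the groups in which they were bright, and they were selected on these arrays, so nothing is read from these shares. The comparisons with AAV-V share the AAV-V arrays. The 2 groups on the normal diet shared a slide, in separate columns, and the AAV-V HFD arrays filled part of another, so slide and diet cannot be told apart.

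The size of each difference depended on the scaling. Over 6 scalings of the signal, which include quantile normalization, spike-in controls and the log2 values the authors deposited, the median of all genes tested moved between 0.48 and 2.28 in AAV-GP73 and between 0.30 and 1.71 in AAV-V HFD. The split of calls moved with it: in AAV-GP73 1912 genes stood higher and 1117 lower, but 4380 and 84 with spike-in scaling. For AAV-V HFD 1427 genes stood higher and 1049 lower, but 3772 and 73 with spike-in scaling. Relative to the median of all genes, Grhpr in AAV-GP73 ranged from 2.20 to 2.41, Agxt from 1.63 to 1.94, Hao1 from 1.88 to 2.29 and Agxt2 from 1.56 to 2.30. Hoga1 ranged from 0.70 to 1.96 and Prodh2 from 0.56 to 1.80, and their AAV-V HFD differences were called in 4 of the 6 scalings and not in the main one. With the normexp background correction, whose offset of 50 exceeds the processed signal of Hoga1 and Prodh2 on every array, Grhpr and Agxt differed from AAV-V by 1.27 and 1.31 in AAV-GP73. Under that correction they stood at 0.97 and 0.64 in AAV-V HFD, where neither was called, and the other 4 genes lay below 0 in both comparisons. The median of all genes tested lay there too, at -0.58 and -0.73. Relative to that median Hao1 stood at 0.52 and 0.70, Agxt2 at 0.32 and 0.55, Hoga1 at -0.05 and -0.11, and Prodh2 at -0.10 and -0.14.

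**Figure D3:**
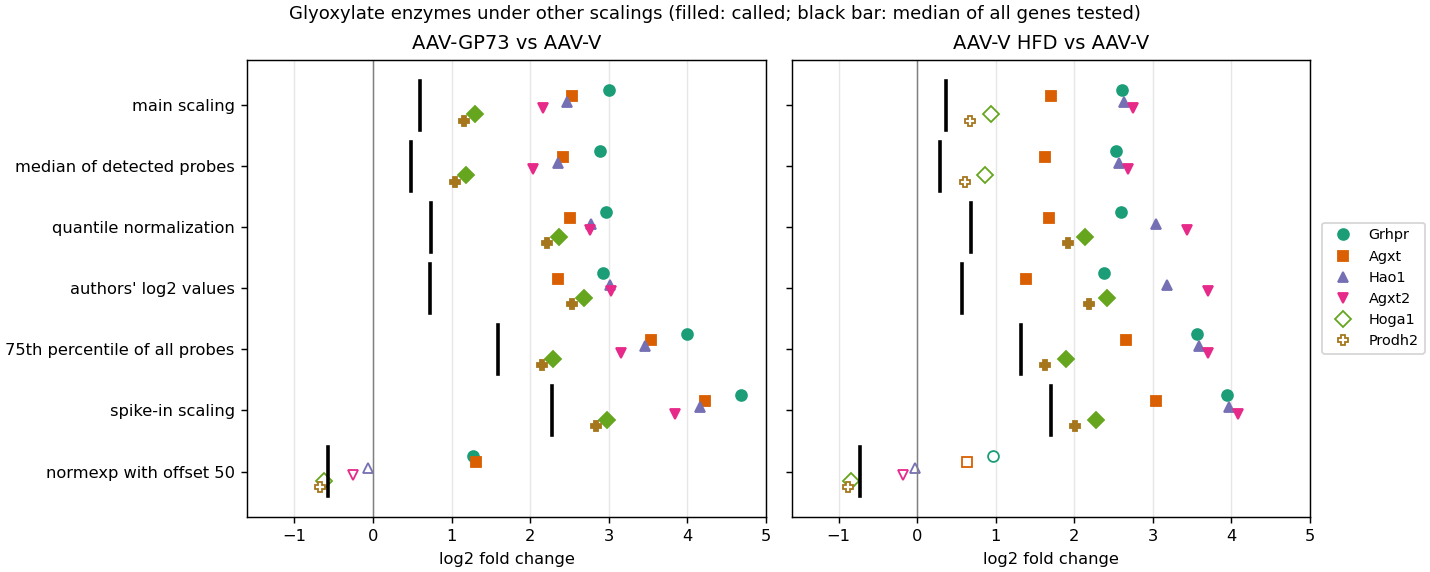
Log2 fold change against AAV-V (horizontal axis) of the 6 genes under each scaling, filled where called. Black bars are the median of all genes tested; the order of Grhpr above Prodh2 in AAV-GP73 is seen in all 7 rows, and with normexp 4 of the 6 genes and the median of all genes lie below 0.

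Genes of the neighbouring steps were taken from 4 lists drawn up by function, with earlier results of these arrays known. Of their 51 genes 29 could be tested. In AAV-GP73 21 rose, 1 fell and 7 were not called, beside 33.2% of all genes called higher and 19.4% lower. In AAV-V HFD 16 rose, 1 fell and 12 were not called, beside 24.8% and 18.2%. The median fitted log2 difference of the 29 was 1.59 with GP73 and 1.18 with the high fat diet, against 0.60 and 0.37 over all genes tested, and 1.11 and 0.49 with the 13 genes undetected on all AAV-V arrays set at their lower bound. Of the 21 that rose in AAV-GP73, 9 were undetected on all AAV-V arrays, and 4 of those 9 have no bound above 1. Of the 16 that rose in AAV-V HFD, 8 were undetected there, and 4 of those 8 have no bound above 1. The 13 undetected genes passed the filter on dim probes through the groups in which they were bright. Nothing is therefore read from these shares and medians.

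Among genes nearest to glyoxylate and proline oxidation, 8 of 11 tested were called higher and 0 lower in each comparison with AAV-V. Ldha, a subunit of lactate dehydrogenase, which can oxidize glyoxylate to oxalate, rose by a log2 of 3.22 (SE 0.34, adjusted p = 6.26e-05 in limma's test) in AAV-GP73 and of 2.61 (SE 0.34, limma adjusted p = 0.000332) in AAV-V HFD. Its scaled log2 signals were 6.28, 6.77 and 5.74 in AAV-V, 9.58, 9.26 and 9.61 in AAV-GP73, and 8.54, 8.65 and 9.43 in AAV-V HFD. Cat, catalase, which destroys the hydrogen peroxide that glycolate oxidase makes, rose by 2.90 and 2.23 (SE 0.29; limma adjusted p = 5.39e-05 and 0.00034). Glyctk, glycerate kinase, which takes up the glycerate made by Grhpr, rose by 1.82 and 1.12 (SE 0.30; limma adjusted p = 0.00039 and 0.00868). Aldh4a1, the dehydrogenase between Prodh2 and Hoga1 in the breakdown of hydroxyproline, rose by 1.59 and 1.43 (SE 0.36; limma adjusted p = 0.00291 and 0.0071). Got2, the mitochondrial aspartate aminotransferase of the same route, was undetected in AAV-V and at least 2.37-fold and 2.09-fold higher. It was called by its fitted differences (limma adjusted p = 0.000781 and 0.00242), which do not test these bounds. Pipox, peroxisomal pipecolic acid and sarcosine oxidase, rose by 1.98 and 1.18 (SE 0.31; limma adjusted p = 0.000308 and 0.00804), with detection on 2 of the 3 AAV-V arrays. Prodh, which starts the breakdown of proline itself, was undetected in AAV-V with no bound above 1. By its fitted differences, which rest on those undetected signals, it was called in AAV-V HFD (limma adjusted p = 0.0493) and not in AAV-GP73 (limma adjusted p = 0.0605).

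Hyi, hydroxypyruvate isomerase, was detected on all 9 arrays and was not called, at 0.0007 and 0.36 (SE 0.28). These small differences rest on the scaling. Before it, Hyi had processed signals of 9.32 to 14.5 in AAV-V, 29.0 to 47.1 in AAV-GP73 and 29.2 to 66.1 in AAV-V HFD. Pgp, which removes phosphate from phosphoglycolate, was not called either, but it was undetected in AAV-V with no bound above 1. It was detected on 2 of the 3 AAV-GP73 arrays and on all 3 AAV-V HFD arrays. Got1, the cytosolic aspartate aminotransferase, rose by 2.14 (SE 0.74, limma adjusted p = 0.0259) in AAV-GP73 and was not called in AAV-V HFD, at -0.24. Its scaled log2 signals on the AAV-V HFD arrays were 3.22, 3.33 and 6.67, so that replicate 3 again stood with the AAV-GP73 arrays (6.16, 7.34 and 6.85). The difference of 2.38 between the groups was not called.

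Of 8 tested genes that handle glycine and serine, 6 were called higher with GP73 and 2 with the high fat diet, beside 33.2% and 24.8% of all genes. Of the 6, 1 was detected on all AAV-V arrays, 3 on some and 2 on none. Between AAV-GP73 and AAV-V HFD 1 differed and 7 were not called, beside 1.96% of all genes called higher and 0.555% lower. Gldc, the decarboxylase of the glycine cleavage system, which consumes glycine, was called in AAV-GP73 by its fitted difference (limma adjusted p = 0.00105). Gldc was undetected in AAV-V, with a bound of at least 1.43-fold that this p does not test. Detection of Gldc was seen on 1 of the 3 AAV-V HFD arrays. Gldc was the only 1 of all 29 genes called between AAV-GP73 and AAV-V HFD, higher by 2.22 (SE 0.46, limma adjusted p = 0.0303). That call was lost when any 1 AAV-GP73 array, or AAV-V HFD replicate 1 or 2, was left out. Gnmt, glycine N-methyltransferase, rose by 2.38 (SE 0.58, limma adjusted p = 0.00404) in AAV-GP73 and stood at 0.78 (SE 0.58) in AAV-V HFD, not called. Its scaled log2 signals on AAV-V HFD arrays were 4.96, 5.19 and 7.63. Gcsh, of glycine cleavage, was detected on 1 of the 3 AAV-V arrays and rose by 1.11 and 1.50 (SE 0.40; limma adjusted p = 0.0318 and 0.00923). Shmt2, of glycine and serine exchange, was called in both groups but was undetected in AAV-V with no bound above 1.

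Of 5 tested genes listed for the substrates of Agxt2, the 3 of pyrimidine breakdown, which yields β-aminoisobutyrate, were called higher in both comparisons with AAV-V. Over all genes tested 33.2% and 24.8% were called higher. Upb1, β-ureidopropionase, was detected on all 9 arrays and rose by 2.42 with GP73 and 2.27 with the high fat diet (SE 0.32; limma adjusted p = 0.000137 and 0.000395). Dpyd, dihydropyrimidine dehydrogenase, was at least 3.62-fold and 1.61-fold higher, and Dpys, dihydropyrimidinase, at least 1.38-fold and 1.25-fold, both undetected in AAV-V. Their fitted differences gave a limma adjusted p = 4.74e-05 and 0.000733 for Dpyd and a limma adjusted p = 0.000856 and 0.00214 for Dpys. These differences rest on undetected AAV-V signals, and their p-values do not test the bounds. Abat and Etnppl were not called in either comparison.

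Of 5 tested peroxisome genes 4 rose and 1 fell in AAV-GP73. Pxmp2, a channel of the peroxisomal membrane, rose by 1.50 and 1.41 (SE 0.40; limma adjusted p = 0.00715 and 0.0122). Pex6, an ATPase that recycles the import receptor Pex5, fell by 2.74 and 2.27 on the log2 scale (SE 0.32; limma adjusted p = 9.1e-05 and 0.000448). Its processed signals before scaling were 1131 to 2074 in AAV-V, 524 to 916 in AAV-GP73 and 640 to 1399 in AAV-V HFD. The size of the fall thus rests in part on the scaling, and AAV-V and AAV-V HFD overlapped before it. Pex5, Pex7 and Pex19 were called in AAV-GP73 but were undetected in AAV-V with no bound above 1.

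**Figure D4:**
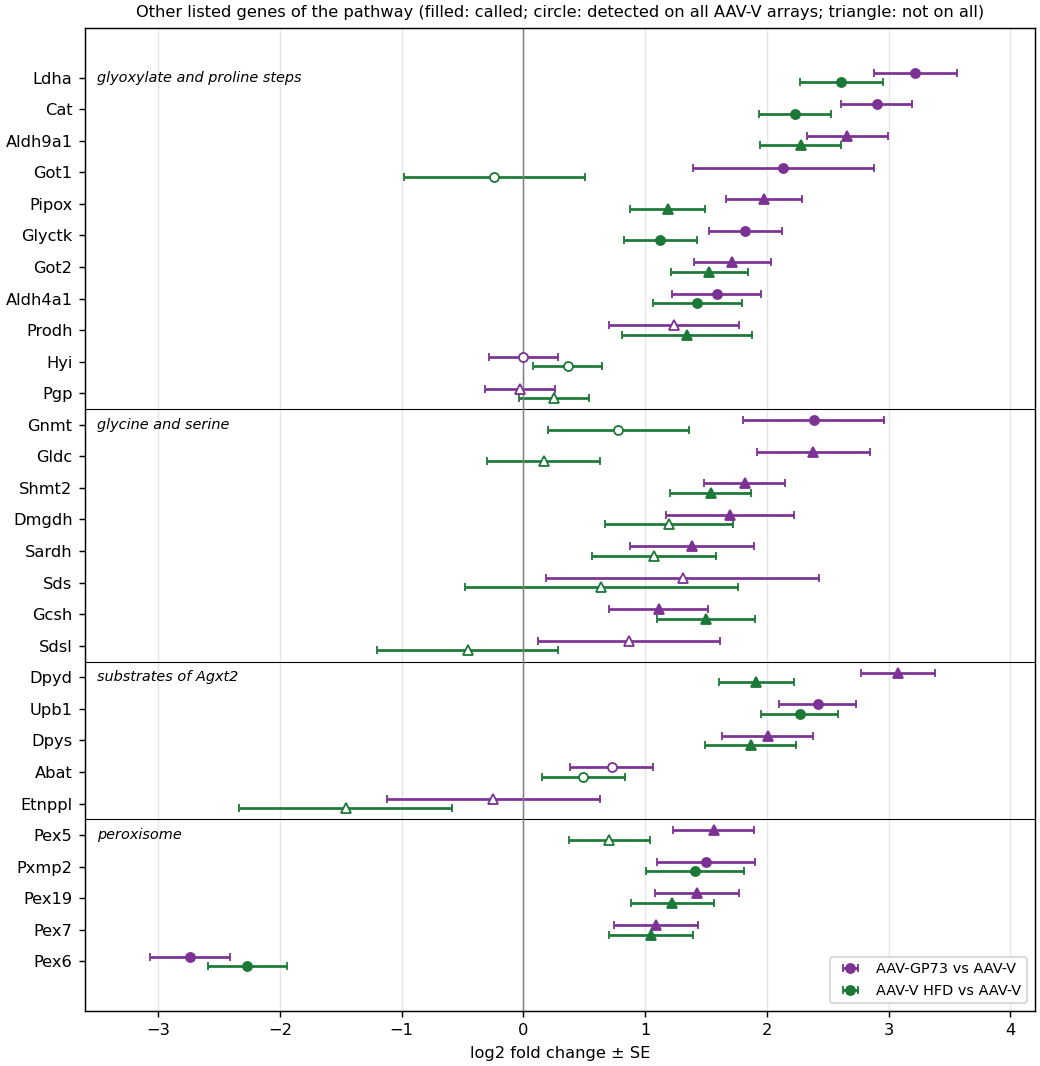
Log2 fold change ± SE against AAV-V (horizontal axis) of the 29 tested genes of the neighbouring lists, in purple for AAV-GP73 and green for AAV-V HFD, filled where called. Circles mark genes detected on all 3 AAV-V arrays and triangles the others; Pex6 alone is called lower.

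The profiles most like those of Grhpr and Agxt over the 9 arrays, each centred on its mean, were sought among the other genes detected on all arrays (2426 compared). For Grhpr the nearest were Scp2, the peroxisomal sterol carrier protein, at a root mean square difference of 0.17 on the log2 scale, Atf5 at 0.23, and Acaa2, a mitochondrial thiolase, at 0.26. For Agxt they were Cbs, cystathionine β-synthase, at 0.18, Fbp1, fructose-1,6-bisphosphatase, at 0.22, and Bhmt, betaine-homocysteine methyltransferase, at 0.36. Scp2 stood above AAV-V by 3.11 with GP73 and by 2.54 with the high fat diet, and Cbs 2.70 and 1.81. These genes were chosen for their likeness, and no test is given.

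Of the 4 members called higher in both comparisons with AAV-V, the upstream sequences of Grhpr, Hao1 and Agxt2 are printed as examples and that of Agxt is not. A RefSeq table of mouse promoters on GRCm38.p6, another build than that of the probes, held all 6 members, and the 250 bases before the transcript start were searched on both strands for TATAAA of core promoters, GGGCGG of GC boxes, AGGTCA of nuclear receptor half-sites and CAAAGTC of HNF4 sites. These letters occurred in 12.4%, 32.7%, 14.0% and 3.84% of all 32851 windows of that length. The motifs do not overlap each other in the windows shown, and capitals mark the matches. The Grhpr window (chr4:44981144-44981393, plus strand) held 2 GC boxes and none of the other motifs, and 60.4% of its bases were G or C against a median of 52.4% over all windows. The Hao1 window (chr2:134554353-134554602, minus strand) held CAAAGTC, and the first Agxt2 window (chr15:10358283-10358532, plus strand) held CAAAGTC and TATAAA, the latter on the other strand:
Grhpr: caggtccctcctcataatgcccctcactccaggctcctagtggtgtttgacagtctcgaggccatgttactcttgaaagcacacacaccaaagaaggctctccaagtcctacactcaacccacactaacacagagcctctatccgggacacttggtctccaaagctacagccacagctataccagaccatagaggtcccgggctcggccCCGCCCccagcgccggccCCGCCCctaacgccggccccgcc
Hao1: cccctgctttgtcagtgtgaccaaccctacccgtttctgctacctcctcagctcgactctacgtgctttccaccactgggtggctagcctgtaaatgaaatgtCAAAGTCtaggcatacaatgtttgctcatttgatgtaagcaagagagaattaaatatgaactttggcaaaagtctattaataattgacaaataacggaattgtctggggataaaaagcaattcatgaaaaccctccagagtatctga
Agxt2: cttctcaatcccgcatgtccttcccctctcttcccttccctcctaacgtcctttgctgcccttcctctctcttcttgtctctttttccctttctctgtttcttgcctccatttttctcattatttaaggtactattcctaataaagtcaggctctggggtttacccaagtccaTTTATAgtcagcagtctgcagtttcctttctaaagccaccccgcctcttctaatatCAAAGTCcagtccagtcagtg
A second Agxt2 window of the table (chr15:10358329-10358578, plus strand), which overlaps the first, also held 1 half-site. The Agxt window held none of the 4 motifs, Hoga1 held 1 GC box and Prodh2 1 half-site. A match of letters is a description and not a bound site.

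Cell type markers were read beside these values, since in a bulk sample fewer cells of a type and less RNA per cell cannot be told apart. All 11 hepatocyte markers on the array were detected on every AAV-V and AAV-GP73 array and 10 of 11 on every AAV-V HFD array, with summed scaled signals of 17681 to 26835 in AAV-V, 17937 to 24257 in AAV-GP73 and 10978 to 18654 in AAV-V HFD. Of these 11, Cps1 of the urea cycle fell by 1.59 with GP73 and by 2.03 with the high fat diet (limma adjusted p = 0.0131 and 0.00473). Cps1 was detected on 1 of the 3 AAV-V HFD arrays. Most of its fall with GP73 and part of that with the high fat diet come from the scaling. On the log2 scale it shifted the AAV-V arrays by 0.87 to 1.10, the AAV-GP73 arrays by -0.77 to -0.41 and the AAV-V HFD arrays by -0.76 to -0.03. Pck1 of gluconeogenesis rose by 3.59 and 2.39 (limma adjusted p = 8.1e-05 and 0.000914), Hpd of tyrosine breakdown rose by 1.95 with GP73 (limma adjusted p = 0.00509), and the other 8 were called in neither. Red blood cell markers moved with AAV-GP73: their summed scaled signal was 396.8 to 984.2 in AAV-V, 3430 to 17429 in AAV-GP73 and 656.6 to 1144 in AAV-V HFD, and 4 of the 5 tested were called higher in AAV-GP73. In AAV-V Hbb-b1 and Hbb-b2 were undetected. Kidney also uses several of the 6 genes, and of 7 kidney markers 6 were undetected on all AAV-V arrays and all 7 on all arrays of the other groups. Of 7 lymphocyte, 5 bile duct and 4 adipocyte markers 0 could be tested, of 6 macrophage markers 4, of 7 stellate markers 2, and of 6 endothelial markers 1. The stellate marker Des fell by 2.14 and 2.31 (limma adjusted p = 0.00404 and 0.00376), while Dcn rose by 1.20 with GP73 (limma adjusted p = 0.00272). Much of the fall of Des comes from the same scaling. With GP73 the endothelial Clec4g was at least 1.50-fold higher and the macrophage Clec4f had a bound barely above 1, both undetected in AAV-V. Both were called higher by their fitted differences (limma adjusted p = 0.0017 and 0.0206), which do not test these bounds. The other 3 macrophage markers were not called. The part of these cell types or of the share of detected probes in the values of the glyoxylate enzymes was not tested.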

How the data were processed

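Liver RNA labelled with Cy3 was read on Agilent arrays. The authors deposited intensity as processed signals of Feature Extraction 12.0.3.1, per the file headers, without scaling between arrays, whereas the submitters' processing notes name version 10.7 and limma. The authors also deposited a table of log2 values, 1 per probe and array, whose normalization is not given in the sources used here. All 56605 of their probes matched the scanner output. Each array held 62976 spots, of which 59305 were not controls; 98 to 151 spots per array carried a quality mark and were left out, and 0 were saturated. Samples were grouped by their labels, and the p-values measure the spread between these samples, which may be technical.

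From these, log2 processed signals were shifted until the 2667 probes with detection on all 9 arrays had 1 common 75th percentile, a choice made because under 1 in 5 spots were detected. The brightest probe stood for its gene, and genes detected on every array of 1 or more groups were tested with limma 3.58.1 (lmFit and eBayes, R 4.3.3) in a fit of all 3 groups. Calls needed a 2-fold difference and a Benjamini-Hochberg adjusted p under 0.05 over the 5761 genes tested. With 3 arrays a group, an exact permutation test cannot give a p under 0.1, and none was run. A lower bound sets each undetected array to its lowest detected signal, or to its own value if higher.

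The members and lists were chosen with earlier results of these data known. The genes named are the members with all their probes, genes of the lists, the 3 nearest profiles of members detected on all 9 arrays, and Golm1. Correlations of residuals between equal replicate numbers lay between -0.12 and 0.17, with 2 of 9 over 0.1, so numbers were not treated as pairs. Alternatives were other scalings, normexp, the deposited log2 values, other filters, each probe by itself, fewer groups in the fit, another variance model, a replicate block, the methods' t-test and leaving out each array.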

Additional observations from a re-analysis of the deposited data

How the results depend on the processing

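Of 609 values recomputed under 23 alternatives, 514 kept their size or call, 89 moved and 6 that had been called changed sign. These 6 came with normexp, whose added offset exceeds most of these signals: Agxt2 to -0.25 with GP73 and -0.18 with the high fat diet, Hao1 to -0.059 and -0.033, Hoga1 to -0.62 and Prodh2 to -0.68 in AAV-GP73. Another 5 values that were not called changed sign: with normexp Hoga1 to -0.84 and Prodh2 to -0.88 in AAV-V HFD, and the Hao1 difference between AAV-GP73 and AAV-V HFD, -0.16, to 0.18 with spike-in scaling, 0.099 without AAV-GP73 replicate 1 and 0.033 without AAV-V HFD replicate 1. With normexp 2 and 0 members were called against AAV-V with GP73 and with the diet, 5 and 4 neighbouring genes, and 850 and 897 of all genes. Requiring detection on all 9 arrays left 2 members to test, both called in each comparison, 9 and 7 neighbouring genes called, and 1181 and 1017 of all genes. Without a filter on dim probes 29630 and 27942 genes were called, most of them lower, and 28 neighbouring genes in AAV-V HFD. Spike-in scaling gave 3845 genes and the methods' t-test with Benjamini-Hochberg adjustment 1558 in AAV-V HFD, where that t-test lost the call of Agxt, as it did that of Agxt2 in AAV-GP73. Between AAV-GP73 and AAV-V HFD, where 145 genes and 1 neighbouring gene were called, the counts were 33 and 0 with quantile normalization, 304 and 3 with spike-in scaling, 42 and 0 with normexp, 12 and 0 with the deposited log2 values, 29 and 0 without a filter, 65 and 0 with detection on all arrays, 327 and 2 with the methods' t-test unadjusted, and 13 and 0 with it adjusted. The number of members called there was 0 under every alternative run. Leaving out 1 array gave 2777 to 3117 genes, 5 to 6 members and 17 to 24 neighbouring genes in AAV-GP73 against AAV-V, 2148 to 2669, 4 to 5 and 15 to 18 in AAV-V HFD against AAV-V, and 21 to 161, 0 and 0 to 5 between the other two groups. With 1 array left out the pair that remains is assumed to vary like the other groups. With the replicate number as a block, although the numbers did not pair the samples, 3029, 2485 and 92 genes were called, and no member's call changed. A slide block was not run, because each slide holds whole groups. The cause of these shifts was not tested beyond the construction of each alternative. Low detection on AAV-V arrays limits 4 of the 6 members to bounds or to no fold, and 3 arrays a group limit the precision.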
